A study of Mus musculus with 8 samples.

Results

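Antibody genes and plasma cell genes were followed in cultures of bone marrow stromal cells (BMSC, which are grown by letting whole marrow and bone stick to the dish) from leukaemic mice. The members are all gene names of the immunoglobulin heavy, kappa and lambda loci, together with 4 companion genes of antibody-secreting cells: Jchain, Mzb1, Sdc1 and Tnfrsf17. By that rule on names, 397 of the 55417 gene names in either count table are members. The MLL-AF9 table lists 97 of them among 15988 names. The AE9a table lists all 397, of which 16 had a count in the columns used.

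Cultures from Id1-/- mice, which are knockouts of the transcriptional inhibitor Id1, were compared with cultures from Id1+/+ (wild type) mice. All the mice had been transplanted 6 weeks earlier with acute myeloid leukaemia driven by the fusion MLL-AF9 or AE9a (AML1-ETO9a), so every culture comes from leukaemic marrow. RNA was taken once adherent cells were visible in the dish, with no cell sorting named in the labels, and each group of model and genotype has 2 samples. The labels do not say which animals the samples came from, so p-values measure the spread between these libraries, which may be technical.

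An antibody pairs heavy chains with light chains. In developing B cells the variable part of each chain is put together by joining V, D and J gene segments, or V and J segments for the light chains, and is then read together with a constant region gene. The constant gene sets the isotype: a B cell starts with IgM and IgD and can switch its heavy chain to IgG, IgA or IgE. Plasma cells, the end stage of the B lineage, secrete antibody and many of them live in the bone marrow beside stromal cells.

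The hinge exons of the IgG subclasses are shown to tell these genes apart, since the log2 fold changes of the tested subclasses ran from 0.98 to 3.29. Exon 2 of each gene is printed 5′ to 3′ on its own strand, from GENCODE M21 transcripts, with the in-frame cysteine codons in capitals. Cysteines of the hinge form the bonds that hold the heavy chains together. The exons lie on the minus strand of GRCm38 (mm10), at chr12:113329844-113329882 for Ighg1, chr12:113307261-113307326 for Ighg2b, chr12:113288263-113288325 for Ighg2c and chr12:113360529-113360576 for Ighg3.
Ighg1: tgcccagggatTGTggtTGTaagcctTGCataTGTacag
Ighg2b: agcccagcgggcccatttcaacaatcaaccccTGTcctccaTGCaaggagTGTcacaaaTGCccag
Ighg2c: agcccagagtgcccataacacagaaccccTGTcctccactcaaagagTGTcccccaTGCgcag
Ighg3: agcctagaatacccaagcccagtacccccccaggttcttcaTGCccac
The hinge exon has 4 cysteine codons in Ighg1 and Ighg2b, 3 in Ighg2c and 1 in Ighg3. Over whole transcripts, 0.39% of the 50-base windows of Ighg1, 4.15% of those of Ighg2b, 5.49% of those of Ighg2c and 1.58% of those of Ighg3 also occur in another gene. The subclasses can therefore be told apart over most of their length.

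The kappa variable genes Igkv1-117 and Igkv1-110 are shown because they were the most abundant variable genes of the Id1-/- cultures and are much alike. Their coding parts of 359 bases differ at 10 positions (97.2% identity). Bases 55 to 174 are printed, with the 5 bases that differ in capitals. Both genes are on the plus strand, at chr6:68121046-68121827 and chr6:68270485-68271267.
Igkv1-117: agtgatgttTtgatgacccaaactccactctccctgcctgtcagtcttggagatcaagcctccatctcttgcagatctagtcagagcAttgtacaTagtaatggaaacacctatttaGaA
Igkv1-110: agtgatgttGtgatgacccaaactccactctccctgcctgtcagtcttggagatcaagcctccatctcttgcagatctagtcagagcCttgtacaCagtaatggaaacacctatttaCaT
Of their 50-base windows, 49.9% in Igkv1-117 and 50.9% in Igkv1-110 also occur in another gene, so reads could be shared or dropped between them. Many variable genes have this limit: 2 of the 22 called below share under 5% of their windows with another gene.

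Library totals were 17864812 to 22510346 counts in the 4 MLL-AF9 libraries. In AE9a, both columns of each genotype are the same values but for a constant over most genes (17 in 14187 rows for Id1-/-, 134 in 17957 rows for Id1+/+), so AE9a was used as 1 library per genotype, of 18126803 counts for Id1-/- and 20967896 for Id1+/+, without a test of its own. The labels do not say which column holds the counts. The columns left out have no gene at 10 to 26 in Id1-/- or at 1 to 135 in Id1+/+, where the columns used have 1831 and 11027 genes, and they were left out for these gaps. Below 10, the Id1-/- columns do not follow each other (Pearson r 0.0291 across 41234 genes), and Id1 is the gene of Id1+/+ with more than 1 count that breaks the constant. All AE9a values below depend on this choice, which the submitters' labels do not settle. A count of 0 allows up to 3 counts, or 0.133 to 0.168 CPM (counts relative to library size) by library. Intervals and floors cover counting error only. Id1 had 226 and 222 counts in the Id1-/- MLL-AF9 libraries, against 706 and 632 in the Id1+/+ libraries (log2 fold change -1.43, SE 0.12, edgeR adjusted p = 4.23e-07). In AE9a it had 83 counts in the Id1-/- library and 383 in the Id1+/+ library, and 100 and 317 in the columns left out. Reads on Id1 thus remained in the knockout libraries. Set beside the label of mesenchymal cells, the 10 macrophage markers summed to more counts than the 10 mesenchymal markers in every library used. The sums were 22850 to 23560 against 3320 to 3591 CPM in MLL-AF9 Id1-/-. In MLL-AF9 Id1+/+ they were 24150 to 26090 against 636 to 717 CPM. Lyz2 held the largest part of the MLL-AF9 macrophage sum, followed by Mpeg1 and Cd68. Lyz2 had 262331 and 235105 counts in Id1-/- and 340837 and 313762 in Id1+/+. The comparison thus leans on a few high genes, and the cell make-up of the cultures was not tested.

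Immunoglobulin transcripts were more abundant in MLL-AF9 cultures from Id1-/- mice. Their counts summed to 296 and 284 CPM of the library total in Id1-/-, against 86.9 and 82.9 CPM in Id1+/+. The mean was 290 ± 8.18 CPM in Id1-/- and 84.9 ± 2.84 CPM in Id1+/+ (SD, n = 2 libraries each), and the libraries of the genotypes did not overlap. Heavy chain constant genes held the largest part, with 172 and 159 CPM in Id1-/- against 51.4 and 50.6 CPM in Id1+/+. The kappa constant gene had 52.2 and 54.7 CPM in Id1-/- and 11.97 and 13.5 CPM in Id1+/+. Variable genes of all 3 chain types summed to 68.2 and 67.3 CPM in Id1-/- and 22.3 and 17.1 CPM in Id1+/+. In bulk RNA, more antibody-making cells and more antibody RNA per cell cannot be told apart.

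**Figure D1:**
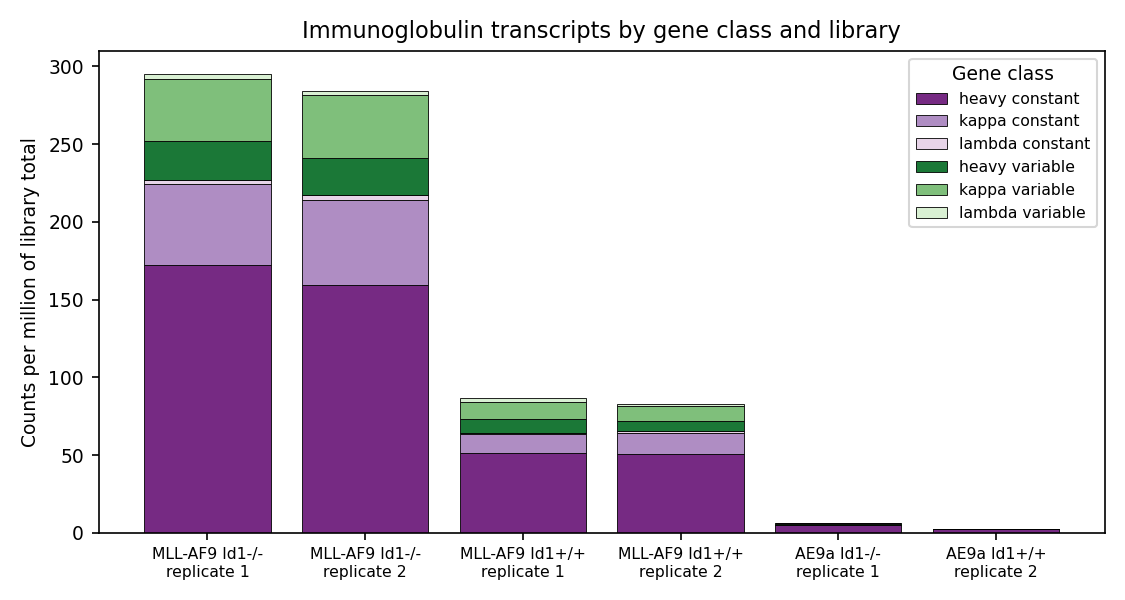
Stacked bars give the summed counts of each immunoglobulin gene class as CPM of the library total, by library; the single joining gene in the MLL-AF9 table is not drawn. The Id1-/- MLL-AF9 libraries stand at 296 and 284 CPM with that gene included, the Id1+/+ libraries at 86.9 and 82.9 CPM, and the AE9a libraries at 6.07 CPM (Id1-/-) and 2.62 CPM (Id1+/+).

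Of the 97 members in the MLL-AF9 table, 39 passed the filter on low counts, 31 were called higher in Id1-/- and 0 were called lower (edgeR quasi-likelihood test, adjusted p under 0.05 over all genes). Of all 14137 genes tested, 17.2% were called higher and 10.6% lower (2434 and 1502 genes, or 3138 and 598 when scaled by library totals alone). No tested member was lower at an unadjusted p under 0.05, and DESeq2 and limma-voom also called 0 lower. The median log2 fold change of the 39 tested members was 2.21, against 0.0029 over all genes. The other 58 members had too few counts to be tested, and a member that passed only through its Id1-/- counts had to be high there, so the median and the count of calls are descriptions of the members that passed. Both Id1-/- libraries lay above both Id1+/+ libraries, on TMM-scaled CPM, in 65 of the 97 members and below them in 5. Over all genes of the table those shares are 32.8% and 29.5%. Of the 15 tested members with at least 10 counts in each Id1+/+ library, 11 were called higher.

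Of 10 constant region genes listed for MLL-AF9, 7 were tested and all 7 were called higher in Id1-/-. Of all tested genes, 17.2% were called higher. The 3 not tested, Ighg3, Ighd and Iglc2, had too few counts and are given below. Ighm, at chr12:113418558-113422730, encodes the heavy chain of IgM, the first isotype a B cell makes. It had 1285 and 909 counts in Id1-/- and 606 and 653 in Id1+/+, or 57.5 ± 11.7 CPM in Id1-/- and 29.8 ± 0.0728 CPM in Id1+/+ (TMM-scaled, mean and SD of 2 libraries each, here and below). The log2 fold change was 0.95 (SE 0.12, adjusted p = 1.98e-05). The Id1-/- libraries differed more between themselves than the Id1+/+ libraries but lay above both of them.

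Ighg1 and Igha rose as well, with log2 fold changes above that of Ighm; the differences between these fold changes were not tested. Ighg1, the IgG1 heavy chain gene at chr12:113325240-113330523, had 697 and 730 counts in Id1-/- and 73 and 89 in Id1+/+. Its level was 37.6 ± 2.73 CPM in Id1-/- and 3.82 ± 0.342 CPM in Id1+/+ (log2 3.29, SE 0.14, adjusted p = 1.58e-10), and the log2 fold change stayed between 3.20 and 3.40 over all alternatives. Igha encodes the heavy chain of IgA, the isotype of mucosal secretions, and lies at chr12:113254830-113260236. It had 898 and 833 counts in Id1-/- and 208 and 267 in Id1+/+ (log2 2.02, SE 0.11, adjusted p = 3.96e-09). The libraries of both genes were close within a genotype and far apart between genotypes.

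The other IgG subclasses had smaller fold changes than Ighg1 or were too low to test. Ighg2b (chr12:113302965-113307933) had 255 and 291 counts in Id1-/- and 124 and 95 in Id1+/+ (log2 1.47, SE 0.18, adjusted p = 1.60e-05). Ighg2c (chr12:113285325-113288932) had 72 and 70 counts in Id1-/- and 45 and 35 in Id1+/+ (log2 0.98, SE 0.27, adjusted p = 0.0136). That call was lost without either Id1-/- library, without Id1+/+ replicate 2 and under DESeq2 (adjusted p 0.0605 to 0.0942). Ighg3 rested on 1 library, with 6 and 4 counts in Id1-/- and 44 and 0 in Id1+/+. It was not tested in the full set and was called lower only without Id1+/+ replicate 2 (log2 -3.02, adjusted p = 0.00201). Ighd, for IgD of the B cell surface, had 8 and 8 counts in Id1-/- and 4 and 1 in Id1+/+ and was not tested. Ighe had no row in this table.

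**Figure D2:**
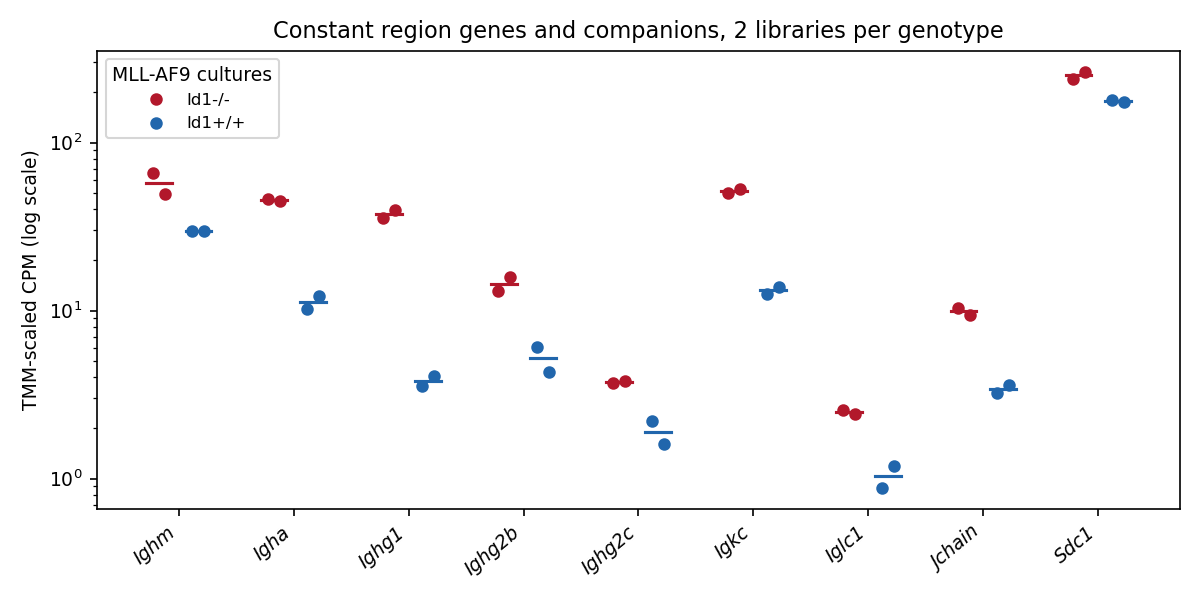
Points give TMM-scaled CPM on a log axis for each MLL-AF9 library, with lines at the mean of 2 libraries, for the 7 tested constant region genes and the companions Jchain and Sdc1. No gene drawn has an Id1+/+ library above an Id1-/- library, and the gap is widest for Ighg1.

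The isotype mix of the libraries is given without a test. Of heavy constant counts, Ighm took 39.9% and 32.0% in Id1-/-, against 54.9% and 57.3% in Id1+/+. Wilson 95% intervals ran from 30.3% to 41.6% over the Id1-/- libraries and from 51.9% to 60.1% over the Id1+/+ libraries. Ighg1 took 21.6% and 25.7% in Id1-/- and 6.61% and 7.81% in Id1+/+. Igha took 27.9% and 29.3% in Id1-/- and 18.8% and 23.4% in Id1+/+. For these 3 genes the libraries of the genotypes did not overlap. Ighg2b did overlap, at 7.92% and 10.2% in Id1-/- and 11.2% and 8.33% in Id1+/+. Ighg2c took 2.2% and 2.5% in Id1-/- and 4.1% and 3.1% in Id1+/+, so its share was lower in both Id1-/- libraries. These are shares of counts, not scaled by gene length.

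Per kilobase of merged exons, the order of heavy chain levels in Id1-/- was Ighm (30.5 CPM per kb), Igha (17.1), Ighg1 (14.5), Ighg2b (5.38) and Ighg2c (2.82). In Id1+/+ it was Ighm (15.8 CPM per kb), Igha (4.19), Ighg2b (1.94), Ighg1 (1.47) and Ighg2c (1.43). On this scale Ighg1 stood close to Igha in Id1-/- and close to Ighg2c in Id1+/+. The scale depends on the annotated length, which is 1326 bases for Ighg2c, 2592 for Ighg1 and 2668 for Igha. Without length scaling, Ighg1 had 3.82 CPM and Ighg2c 1.90 CPM in Id1+/+. With 2 libraries per genotype the order of such neighbours was not tested.

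**Figure D3:**
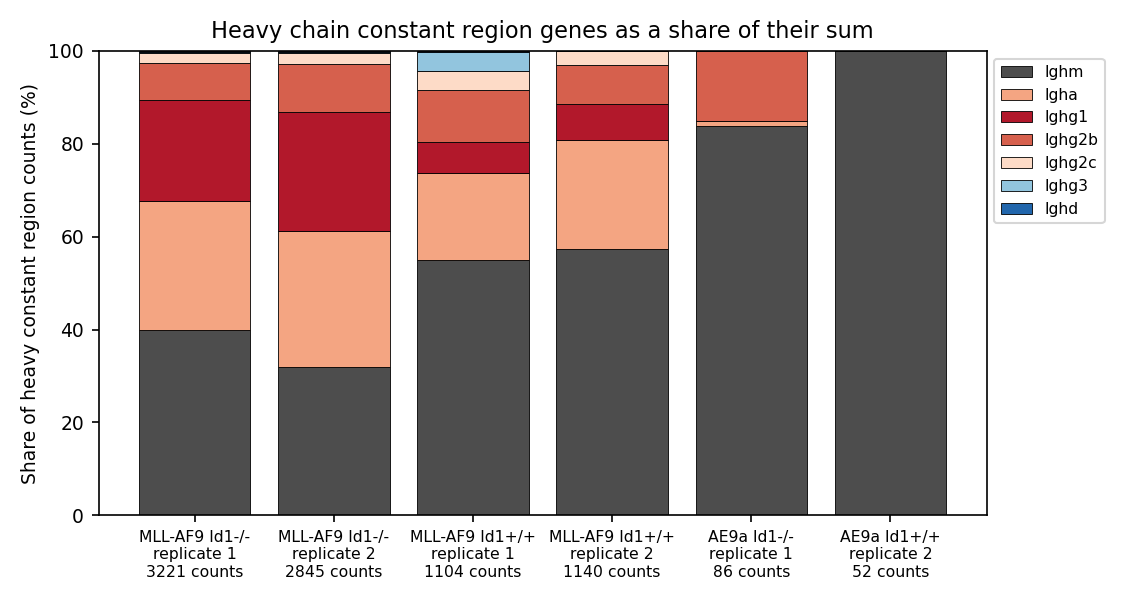
Each bar divides the heavy chain constant region counts of a library by gene, in percent, with the total count under the bar. The Ighm part is 39.9% and 32.0% in MLL-AF9 Id1-/- and 54.9% and 57.3% in MLL-AF9 Id1+/+; the AE9a bars rest on 86 and 52 counts.

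Of the light chain constant genes, Igkc and Iglc1 rose. Igkc, the constant region of kappa at chr6:70726435-70726966, had 977 and 978 counts in Id1-/- and 257 and 304 in Id1+/+, or 51.5 ± 2.09 CPM in Id1-/- and 13.2 ± 0.904 CPM in Id1+/+ (log2 1.96, SE 0.11, adjusted p = 2.51e-09). Iglc1, a lambda constant gene at chr16:19061618-19062071, had 50 and 45 counts in Id1-/- and 18 and 26 in Id1+/+ (log2 1.26, SE 0.33, adjusted p = 0.00931). The Iglc1 call was lost without Id1-/- replicate 1, without Id1+/+ replicate 1 and under DESeq2 (adjusted p 0.0643 to 0.0945). Iglc2 had 4 and 7 counts in Id1-/- and 6 and 7 in Id1+/+, overlapping, and was not tested. Lambda took 5.24% and 5.05% of light chain constant counts in Id1-/- and 8.54% and 9.79% in Id1+/+. Kappa is the main light chain of the mouse, and it led in every MLL-AF9 library.

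Ratios within a library do not depend on scaling between libraries. Igkc had 0.760 and 1.08 counts per Ighm count in Id1-/-, against 0.424 and 0.466 in Id1+/+. Ighg1 had 0.542 and 0.803 counts per Ighm count in Id1-/- and 0.121 and 0.136 in Id1+/+. Igha had 0.699 and 0.916 in Id1-/- and 0.343 and 0.409 in Id1+/+. In all 3 ratios both Id1-/- libraries lay above both Id1+/+ libraries, so Ighg1, Igha and Igkc stood higher relative to Ighm as well as to the whole library. Ighg2b and Ighg2c were not set against Ighm in this way, so the ratios cover these 3 genes only. On TMM-scaled CPM, 32.8% of all genes had both Id1-/- libraries above both Id1+/+ libraries. The ratios were not tested.

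Jchain and Sdc1 were the companions in the MLL-AF9 table. Jchain, at chr5:88519809-88527891, encodes the joining chain that links IgM and IgA into polymers. It had 203 and 173 counts in Id1-/- and 66 and 79 in Id1+/+ (9.88 ± 0.721 CPM in Id1-/- and 3.42 ± 0.262 CPM in Id1+/+, log2 1.53, SE 0.18, adjusted p = 1.42e-05). Both Id1-/- libraries lay below both Id1+/+ libraries relative to Igkc, with 0.208 and 0.177 counts per Igkc count against 0.257 and 0.260 in Id1+/+.

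Sdc1, at chr12:8771323-8793715, encodes syndecan-1 (CD138), a heparan sulfate proteoglycan used to recognise plasma cells and also made by epithelial and other cells. It had 4663 and 4887 counts in Id1-/- and 3657 and 3823 in Id1+/+, or 252 ± 18.4 CPM in Id1-/- and 177 ± 3.36 CPM in Id1+/+ (log2 0.51, SE 0.08, adjusted p = 0.000223). Per kilobase Sdc1 stood at 66.0 CPM in Id1-/- and 46.4 CPM in Id1+/+, against 3.92 and 1.36 CPM per kb for Jchain, and its difference was the smallest of the called members. Mzb1, a chaperone of antibody assembly in the endoplasmic reticulum, and Tnfrsf17 (BCMA), the plasma cell survival receptor, had no row in this table.

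The variable genes code for the antigen-binding ends and show how broad the antibody RNA was. The MLL-AF9 table lists 84 of them: 83 and 83 had counts in the Id1-/- libraries, against 55 and 45 in the Id1+/+ libraries. Of all 15994 rows, 15967 and 15935 had counts in Id1-/- and 15835 and 15848 in Id1+/+. None of the 84 was at 0 in both Id1-/- libraries, and 19 were at 0 in both Id1+/+ libraries. A gene listed only through its Id1-/- counts had to be present there, so the contrast may partly reflect which rows are listed. The 84 genes summed to 1277 and 1202 counts in Id1-/- and 479 and 386 in Id1+/+, and fewer counts leave more genes at 0. Of the 84, 30 were tested and 22 were called higher, with 8 not called. Heavy chain variable genes had 8 of 9 called, kappa 14 of 20 and lambda 0 of 1. Of all tested genes, 17.2% were called higher and 10.6% lower. A variable gene that passed the low-count filter only through its Id1-/- counts had to be high there. These calls therefore describe the genes that passed. Only 6 tested variable genes had at least 10 counts in each Id1+/+ library, and 2 of those 6 were called.

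No single variable gene made up most of the reads. The most abundant in Id1-/- replicate 1 was Igkv1-117, with 7.91% of variable counts, and in Id1-/- replicate 2 Igkv1-110, with 9.32%. Igkv1-110 led in both Id1+/+ libraries, with 12.9% and 12.4%. Across the 84 genes, log2 counts (plus 1) had a Pearson r of 0.588 between the Id1-/- replicates and 0.487 between the Id1+/+ replicates, a description across genes that share sequence and are not independent.

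The pair printed above had unequal fold changes. Igkv1-117 had 101 and 83 counts in Id1-/- and 5 and 9 in Id1+/+ (log2 3.85, SE 0.35, adjusted p = 8.03e-07). Igkv1-110 had 87 and 112 counts in Id1-/- and 62 and 48 in Id1+/+ (log2 1.01, SE 0.25, adjusted p = 0.00690). The call of Igkv1-110 was lost without Id1-/- replicate 2 (adjusted p = 0.0952) and without Id1+/+ replicate 2 (0.0537). The difference between the members of the pair was not tested.

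Among heavy chain genes, Ighv1-81 had 97 and 68 counts in Id1-/- and 7 and 10 in Id1+/+ (log2 3.41, SE 0.36, adjusted p = 3.02e-06). Ighv1-64 had 48 and 59 counts in Id1-/- and 16 and 17 in Id1+/+ (log2 1.85, SE 0.34, adjusted p = 0.000794). The Ighv1 subgroup was the largest heavy chain subgroup in the table with 16 genes, of which 10 were not tested. Only 1 of the 6 tested had at least 10 counts in each Id1+/+ library. Genes that passed the filter only through their Id1-/- counts had to be high there, so the calls describe the genes that passed. All 6 tested genes were called higher, against 17.2% of all tested genes. The other 4 were Ighv1-18 (27 and 18 counts in Id1-/-, 2 and 0 in Id1+/+), Ighv1-26 (26 and 16, against 9 and 4), Ighv1-53 (23 and 20, against 6 and 0) and Ighv1-82 (16 and 24, against 6 and 0). Outside that subgroup Ighv5-6 (14 and 13 counts in Id1-/-, 0 and 2 in Id1+/+) and Ighv8-12 (22 and 19, against 5 and 0) were called. Ighv9-3 was not, with 11 and 10 counts in Id1-/- and 19 and 3 in Id1+/+ (log2 0.07).

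**Figure D4:**
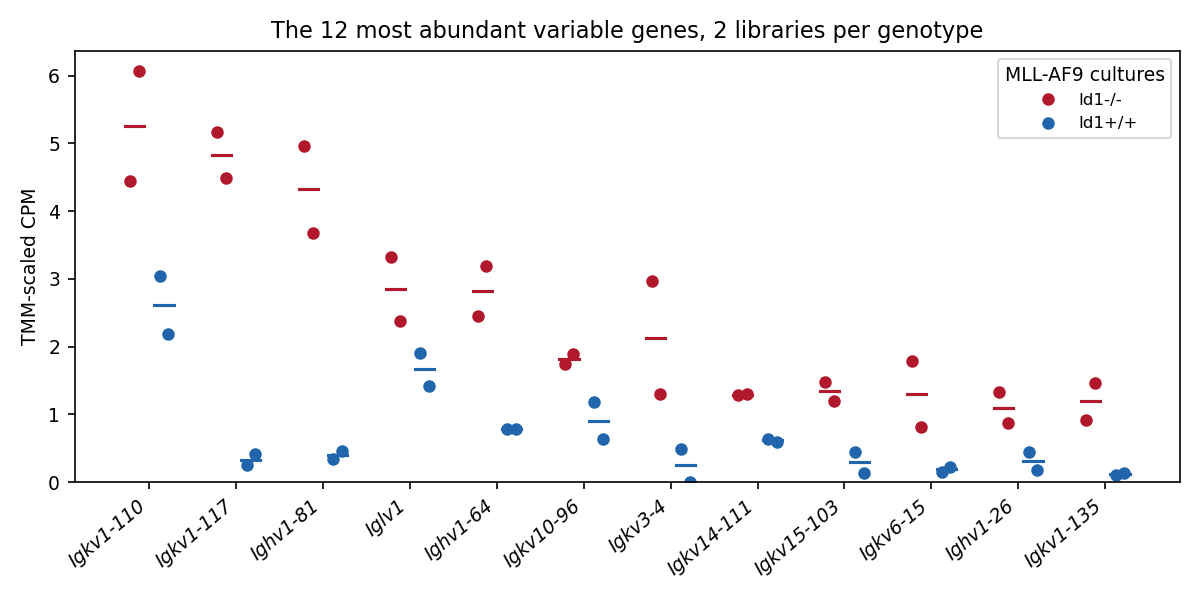
Points give TMM-scaled CPM for each MLL-AF9 library, with lines at the mean of 2 libraries, for the 12 variable genes with the highest mean count. In all 12 both Id1-/- points lie above both Id1+/+ points, and Igkv1-110 and Iglv1 have the highest Id1+/+ points. Picking by mean count over these same libraries favours genes that are high in Id1-/-. Of all 84 variable genes listed, 54 had both Id1-/- libraries above both Id1+/+ libraries and 5 had them below. Over all genes those shares are 32.8% and 29.5%.

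Among the kappa genes, Igkv3-4 had 58 and 24 counts in Id1-/- and 10 and 0 in Id1+/+, and its log2 fold change lay between 2.10 and 8.42 over the alternatives. Igkv15-103 had 29 and 22 counts in Id1-/- and 9 and 3 in Id1+/+, Igkv6-15 had 35 and 15 against 3 and 5, and Igkv1-135 had 18 and 27 against 2 and 3. Igkv3-12 (20 and 15 counts in Id1-/-, 8 and 4 in Id1+/+), Igkv4-53 (18 and 13, against 4 and 0), Igkv4-58 (11 and 15, against 0 and 3) and Igkv19-93 (13 and 10, against 4 and 0) were also called.

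Both Id1+/+ libraries were at 0 for 4 called kappa genes. These passed the filter on low counts only through their Id1-/- counts and had to be high there. The folds given here therefore only describe genes that passed. Taking 3 counts over the group as the floor of Id1+/+ and the Id1-/- counts as exact, Igkv6-17 (10 and 26 counts in Id1-/-) was at least 13.4-fold higher in Id1-/-, Igkv3-5 (11 and 19) and Igkv6-23 (13 and 17) at least 11.1-fold higher, and Igkv17-121 (13 and 11) at least 8.90-fold higher. Across all members in the table, 19 were at 0 in both Id1+/+ libraries, and the share over all genes was not counted.

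Of the 8 tested variable genes without a call, some had at least 10 counts in every library. Iglv1, the leading lambda gene, had 65 and 44 counts in Id1-/- and 39 and 31 in Id1+/+ (log2 0.78, SE 0.30, adjusted p = 0.0662). Igkv10-96 had 34 and 35 counts in Id1-/- and 24 and 14 in Id1+/+ (adjusted p = 0.0660), and Igkv14-111 had 25 and 24 against 13 and 13 (adjusted p = 0.0704). In these 3 the Id1-/- libraries were the higher ones without reaching the threshold. Igkv3-2 missed it as well (adjusted p = 0.0522). Igkv3-10 had a log2 fold change of -0.40 and Igkv8-30 of -0.12, and Igkv5-43 had 12 and 5 counts in Id1-/- and 0 and 18 in Id1+/+.

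Leaving out single libraries ended several calls of variable genes. Without Id1-/- replicate 1, 7 of the 22 variable calls were lost (adjusted p 0.0575 to 0.229), namely Igkv3-4, Igkv3-12, Igkv6-15, Igkv15-103, Igkv4-53, Ighv1-26 and Ighv1-53. Without Id1-/- replicate 2, 4 were lost (0.0952 to 0.110), namely Ighv1-82, Igkv1-110, Igkv3-12 and Igkv19-93. Without Id1+/+ replicate 1, 4 were lost (0.0512 to 0.156), namely Ighv1-26, Ighv5-6, Igkv3-12 and Igkv4-58. Without Id1+/+ replicate 2, 9 were lost (0.0537 to 0.268), namely Ighv1-26, Ighv1-53, Ighv1-82, Ighv8-12, Igkv1-110, Igkv3-12, Igkv4-53, Igkv15-103 and Igkv19-93. Under DESeq2, Igkv3-4 (adjusted p = 0.362), Ighv1-26, Igkv3-12 and Igkv4-53 lost theirs. In all, 9 variable genes and 7 constant or companion genes kept their call under every alternative that tested them. The 9 were Ighv1-18, Ighv1-64, Ighv1-81, Igkv1-117, Igkv1-135, Igkv3-5, Igkv6-17, Igkv6-23 and Igkv17-121. The 7 were Ighm, Igha, Ighg1, Ighg2b, Igkc, Jchain and Sdc1. Not all of the 9 met every alternative: Igkv3-5, Igkv6-17 and Igkv6-23 were tested in 9 of 10 and Igkv17-121 in 7. These 4 genes, at 0 in both Id1+/+ libraries, and Igkv4-58 were not tested without Id1-/- replicate 2. Igkv17-121 and Igkv19-93 were not tested without Id1-/- replicate 1.

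**Figure D5:**
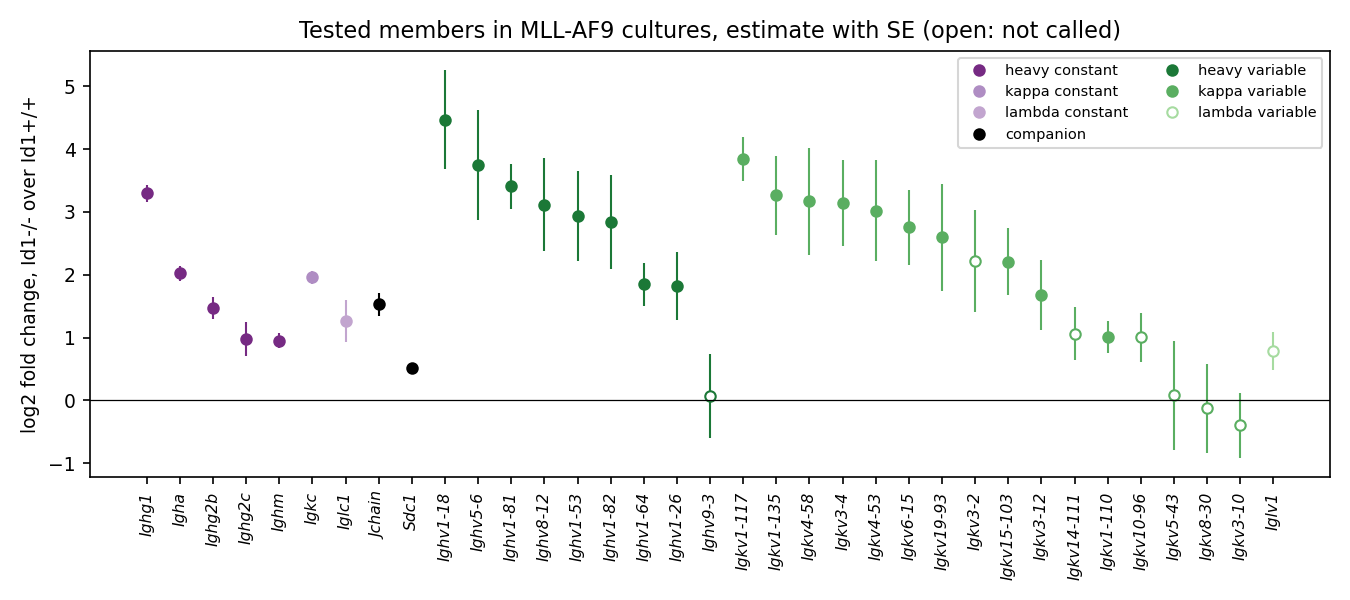
Points give the log2 fold change of Id1-/- over Id1+/+ in MLL-AF9 cultures with its SE from edgeR for the 35 tested members that had counts in Id1+/+; filled points were called and the 8 open ones were not. Constant region genes sit at 0.95 or above, and variable genes spread from -0.40 to 4.47.

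Other B lineage genes were read against the 17.2% of all tested genes called higher and the 10.6% called lower. Of 20 B lineage surface and signalling genes 11 were tested, with 1 higher and 3 lower, and a median log2 fold change of -0.23; nothing particular to the list is read from counts this small. Bank1, an adaptor of B cell receptor signalling, rose (log2 1.03, adjusted p = 0.0226). Cd37, a tetraspanin of leukocytes, fell (log2 -0.73, adjusted p = 1.39e-05), as did the kinase gene Btk (-0.40, 0.00323) and Tnfrsf13b (-0.34, 0.0185), a receptor for the survival factors BAFF and APRIL. The list summed to 425 and 460 CPM in Id1-/- and 562 and 543 CPM in Id1+/+. Myeloid cells also express several of these genes. Ms4a1 (CD20), a defining B cell gene, and the receptor gene Cr2 had no row in the MLL-AF9 table, and Ms4a1 was at 0 in both AE9a columns used.

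The signal chains of the B cell receptor had low counts. Cd79a had 12 and 12 counts in Id1-/- and 12 and 6 in Id1+/+ (adjusted p = 0.500), and Cd79b had 12 and 19 in Id1-/- and 17 and 36 in Id1+/+ (0.353). Neither was called. Among 11 B lineage transcription factors, 7 were tested: Ebf1 (log2 1.12, adjusted p = 8.58e-05), which stromal cells also express, and Tcf3 (0.37, 0.00579) rose and Bcl6 fell (-0.30, 0.0110), while Pax5 had no row. This list summed to 217 and 224 CPM in Id1-/- and 199 and 202 CPM in Id1+/+. Of the 10 genes of the surrogate light chain and recombination list, 2 were tested and Il7r fell (-0.52, 0.000113). Vpreb1, Igll1, Rag1, Rag2 and Dntt, which mark B cell precursors, had no row. Vpreb3 had 14 and 3 counts in Id1-/- and 10 and 1 in Id1+/+ and was not tested. The list summed to 400 and 404 CPM in Id1-/- and 500 and 539 CPM in Id1+/+. Nearly all of that sum was Il7r, with 7027 and 6794 counts in Id1-/- and 10348 and 11688 in Id1+/+.

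Of 18 genes of the plasma cell programme 15 were tested, with 3 higher and 4 lower, against 17.2% and 10.6% of all tested genes. The endoplasmic reticulum genes Txndc5 (log2 0.56, adjusted p = 9.23e-05), Pdia4 (0.50, 0.000230) and Fkbp11 (0.90, 0.000607), which help proteins fold, were higher in Id1-/-. Sec11c (-0.38, 0.00378), Edem1 (-0.28, 0.0121), Slamf7 (-0.25, 0.0295) and Ell2 (-0.23, 0.0468) were lower. The master regulators of plasma cells were not called: Prdm1 had 288 and 292 counts in Id1-/- and 301 and 251 in Id1+/+, Xbp1 3343 and 3036 against 3700 and 3727, and Irf4 33 and 28 against 21 and 19 (adjusted p 0.269, 0.571 and 0.142). The list summed to 1398 and 1354 CPM in Id1-/- and 1292 and 1322 CPM in Id1+/+.

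Markers of other cells also moved between the genotypes. Over all tested genes 17.2% were called higher and 10.6% lower. Of 10 mesenchymal markers 7 were higher, with the largest log2 fold changes in Col1a1 (2.67) and Col1a2 (2.47). The 1 called lower was Cxcl12 (log2 -1.28, adjusted p = 1.02e-07). Of 7 tested neutrophil markers 6 were lower, and the list summed to 357 and 352 CPM in Id1-/- and 570 and 509 CPM in Id1+/+. Macrophage markers had 3 higher and 3 lower of 10. Of the T and NK markers 3 were tested and Gzmb rose (log2 3.60, adjusted p = 1.25e-05); the list summed to 13.8 and 13.9 CPM in Id1-/- and 6.89 and 7.55 CPM in Id1+/+, and Cd3d, Cd3e and Cd3g had no row. Of 3 tested plasmacytoid dendritic cell markers Tcf4 rose (0.31) and Bst2 (-0.40) and Irf8 (-0.25) fell; the list summed to 481 and 496 CPM in Id1-/- and 499 and 522 CPM in Id1+/+, and Siglech had no row. Erythroid markers had 1 tested gene, Klf1, which was not called, and summed to 0.694 and 0.616 CPM in Id1-/- and 1.54 and 1.82 CPM in Id1+/+. The part of any of these cells in the antibody result was not tested.

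In AE9a cultures antibody RNA was scarce. Immunoglobulin genes summed to 110 counts (6.07 CPM) in the Id1-/- library and 55 counts (2.62 CPM) in the Id1+/+ library. Ighm had 72 counts in Id1-/- and 52 in Id1+/+, a ratio of 1.60 (95% exact binomial interval 1.11 to 2.33). With TMM scaling the ratio was 1.40 and its interval, 0.964 to 2.04, included 1. It made up 83.7% of 86 heavy constant counts in Id1-/- (Wilson interval 74.5% to 90.1%) and 52 of 52 in Id1+/+. Ighg2b had 13 counts in Id1-/- and 0 in Id1+/+, and the exact binomial interval of its ratio started at 3.53 (3.07 with TMM scaling). Igkc had 8 counts in Id1-/- and 0 in Id1+/+, with an interval starting at 1.98 (1.72 with TMM scaling), but it was at 0 in the Id1-/- column left out. Ighg1, the gene with the largest constant region difference in MLL-AF9, was at 0 in both AE9a libraries. With 1 library per genotype these ratios have no replicate check.

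The companions in AE9a were mostly at the floor. Jchain had 4 counts in Id1-/- and 2 in Id1+/+, a ratio of 2.31 (0.332 to 25.6), Tnfrsf17 had 2 and 0, and Mzb1 had 0 in both. In the Id1-/- column left out Jchain and Tnfrsf17 were at 0. Sdc1 had 2295 counts in Id1-/- and 3579 in Id1+/+, a ratio of 0.742 (0.704 to 0.782). Variable genes with counts numbered 9 in Id1-/- and 1 in Id1+/+.

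The difference between the genotype effects of the 2 models was tested with edgeR across all 6 libraries used, on the assumption that spread in AE9a, with no replicate of its own, is that of MLL-AF9. Of 72 members tested, 11 had a count in AE9a. The others were at 0 in both AE9a libraries, so their difference could not be estimated or called (for Ighg1 the SE was 4928). The number of members called can therefore not be set against the 10.3% of all 15086 genes called. Among the members 1 was called. That member was Sdc1, which was higher in Id1-/- in MLL-AF9 and lower in AE9a (log2 difference of the effects, AE9a minus MLL-AF9, -1.23, SE 0.14, adjusted p = 0.000112). Ighm (-0.56, adjusted p = 0.346), Jchain (-0.64, 0.819), Igkc (4.13, 0.226) and Ighg2b (5.31, 0.0885) were not called. The large estimates for Igkc and Ighg2b rest on a count of 0 in the AE9a Id1+/+ library. Scarce AE9a counts leave little power for most of the 11 members with a count there, and none for the others.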

How the data were processed

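The authors deposited counts per gene name, without normalization, in 1 table for each leukaemia model. Per the submitters' processing notes, the build was mm10 and the tools were featureCounts 2.0.1 (a read counter), HISAT2 2.2.1 (an aligner), fastp 0.22.0 (a read trimmer) and DESeq2 1.32.0, with no roles or order given; the strand setting and annotation are not given in the sources used here. How reads from near-identical variable genes were assigned is not stated either, and this can move counts between them. The MLL-AF9 table holds 15994 rows, so most members have no row there, and 13 of its rows total under 10 counts.

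For MLL-AF9, edgeR 4.0.16 (R 4.3.3) was run on genes kept by filterByExpr with TMM factors, using its quasi-likelihood F test (two-sided, 2 libraries per genotype, Benjamini-Hochberg adjustment over all genes, threshold 0.05). The fit was also run on simulated data drawn with the spread estimated from these libraries. That run cannot show whether the replicates are technical. MLL-AF9 replicates differed by more than sampling noise (median chi-square 1.71 in Id1-/- and 2.19 in Id1+/+). Within AE9a, counts were compared only as ratios, scaled by library totals and, as an alternative, by TMM. Gene annotation and sequences came from GENCODE M21 on GRCm38, the build named mm10, and 395 members matched a gene. DESeq2 1.42.0, limma 3.58.1 and Python 3.11.15 served for alternatives and summaries.

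Named genes are every constant region gene and companion, the 12 variable, diversity or joining genes with the highest mean count, any other called member, AE9a members with at least 10 counts, and up to 4 genes of each of 10 companion lists. Members and lists were chosen with earlier results of these data known.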

Additional observations from a re-analysis of the deposited data

Results flagged for a closer look

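Sdc1 (syndecan-1) differed between the leukaemia models in its response to genotype. It was higher in Id1-/- in MLL-AF9 (4663 and 4887 counts in Id1-/-, 3657 and 3823 in Id1+/+) and lower in Id1-/- in AE9a (2295 counts in Id1-/-, 3579 in Id1+/+). The difference of the effects was -1.23 on the log2 scale (edgeR joint fit, adjusted p = 0.000112), and ran from -1.30 to -1.02 over the alternatives (adjusted p 5.75e-14 to 0.00150). AE9a rests on 1 library per genotype, in columns the labels do not mark as the counts, and is a different leukaemia, and the AE9a libraries also differ in other markers: mesenchymal markers summed to 1200 CPM in Id1-/- and 271 CPM in Id1+/+. Their part in the Sdc1 values was not tested.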

How the results depend on the processing

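The count of members called higher was 31. With no filter on low counts it was 48, since more low members were tested, and it was 32 with DESeq2 size factors, 34 with library totals, 22 with the DESeq2 test and 32 with limma-voom; leaving out each library in turn gave 21 to 30. The count called lower stayed at 0 except for 1 (Ighg3) without Id1+/+ replicate 2, a range of 0 to 1 over the left-out libraries. With library totals the median log2 fold change over all genes was 0.1145, against 0.0029 with TMM, and 3138 genes were called higher and 598 lower, against 2434 and 1502. The count with a different effect between models was 1 under the other scaling, with no filter and with the block, and 1 to 2 over the left-out libraries (Ighg2b was added without Id1+/+ replicate 2, adjusted p = 0.0324).

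Nothing shows that replicate numbers pair the samples: deviations correlated at 0.069 across 14137 genes. The fit with the replicate block called 34 members higher. TMM scaling moved the immunoglobulin sum to 279 CPM in Id1-/- and 88.3 CPM in Id1+/+, and the AE9a ratios of Sdc1 to 0.647 and of Ighm to 1.40, whose interval then included 1. Of 329 values for 34 named members, 288 kept direction and call, 36 lost the call, 5 gained it and 0 changed direction. Depth limits most variable genes and nearly all AE9a members.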

Other observations

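Ighv3-6 lay the other way from most members, with 3 and 5 counts in Id1-/- and 8 and 23 in Id1+/+. Ighv1-12, Ighv1-69, Ighv6-6 and Igkv3-10 also had both Id1+/+ libraries above both Id1-/- libraries, at no more than 17 counts in a library. These 5 genes were picked after their values were seen, and 29.5% of all genes in the table lie this way. Of the 84 variable genes in the table, 82 had counts in both Id1-/- libraries. In Id1+/+, 35 had counts in both libraries, 30 in a single library and 19 in neither. This contrast may partly reflect which genes have a row in the table.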
